A study of Mus musculus with 12 samples.

Results

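Chil3 and the other genes described here are listed together as genes of alternative macrophage activation in the mouse, although several are also made by other cells or belong to other signals. They were followed in liver RNA after acetaminophen (APAP) injury. The list holds 8 genes that were chosen by name with earlier results of these livers in view, in particular the measured CPM and fold change of Chil3 over control in both APAP groups. Of the 8 listed genes, 7 were among the 24187 genes of the count table and all 7 passed the filter on low counts, which left 22581 genes. The secreted protein gene Retnla was not analysed here. The levels against control were part of the choice, so those differences are given as a description. Calls of listed genes against control stand only beside the share of all genes, and are not read as a test of any listed gene. The comparison of hAAM with vehicle did not enter the choice and was tested.

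The study asked whether human alternatively activated macrophages (hAAMs) help a mouse liver recover from APAP, a drug that kills hepatocytes at high dose. Bulk RNA sequencing covered whole liver from 12 mice, C57BL/6J by the labels, although the methods name the JOlaHsd substrain for APAP injection. The 3 control mice had no injury and no treatment, and the 9 injured mice received APAP, at 350 mg/kg by the labels, followed by either PBS vehicle (5 mice) or hAAMs (4 mice). The methods describe mice of 10 to 12 weeks, fasted for 12 h, with cells or vehicle given intravenously 16 h after APAP. They place collection at 36 h after APAP. The study also used a more severe model with a higher dose, collected at 32 h, and shows the sequencing beside that model, so the dose and time of the sequenced livers are uncertain. Their sex was not given in the sources used here. The hAAMs were grown from human CD14+ blood monocytes with CSF1 and then with IL-4 and IL-13, the cytokines that define this activation state. Reads were aligned to the mouse genome, so the genes below are mouse genes, and the share of human RNA in the hAAM livers was not tested.

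Macrophages exposed to IL-4 or IL-13 signal through the receptor chain IL4RA and the transcription factor STAT6. In mice they secrete chitinase-like and resistin-like proteins and carry lectin receptors that bind and take up sugar-bearing proteins. IL-10, read through IL10RA, STAT3 and SOCS3, is a separate signal that restrains inflammatory activation. Chil3 (Ym1) is not made only by such cells, since recruited monocytes and neutrophils also carry it, and MRC1 is a receptor of liver sinusoidal endothelium as well as of macrophages.

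Chil3 and its close relative Chil4 lie next to each other on chromosome 3, and the bases just before both genes are shown because both genes were higher in every APAP liver than in every control. RefSeq sequence of GRCm38.p6 was read upstream of each start, on the minus strand, at chr3:106167565-106167814 for Chil3 and at chr3:106219508-106219729 for Chil4, where 28 bases that the GENCODE annotation places inside Chil4 were left out. Capitals mark the letters TTCNNNGAA, a spaced palindrome of the kind that STAT proteins bind.
Chil3: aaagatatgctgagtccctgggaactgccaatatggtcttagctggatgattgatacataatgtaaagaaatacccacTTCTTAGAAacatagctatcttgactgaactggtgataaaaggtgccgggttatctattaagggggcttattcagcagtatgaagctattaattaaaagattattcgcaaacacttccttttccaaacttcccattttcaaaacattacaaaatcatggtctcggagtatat
Chil4: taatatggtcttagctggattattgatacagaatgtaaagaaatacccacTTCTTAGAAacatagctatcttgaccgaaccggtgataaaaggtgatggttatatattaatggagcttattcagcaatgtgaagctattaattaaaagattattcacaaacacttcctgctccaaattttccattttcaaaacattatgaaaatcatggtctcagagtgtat
The pair was 91.0% identical over 221 aligned bases. The motif began at position -172 from the RefSeq start in Chil3 and at -200 in Chil4. It was found, on both strands, in 7.02% of 32851 promoters of 250 bases. The wider spacing with 4 free bases in place of 3, the form most often linked to STAT6, was in 5.85% of promoters and in none of the 5 promoters of the listed genes that could be read (Chil3, Chil1, Mrc1, Mgl2 and Il4ra). The promoters of Clec10a and Il10ra were not read. The letters GAGGAA, which PU.1 binds, occurred 3 times before Mrc1 and once before Mgl2, against 23.3% of all promoters with at least 1 match. These matches are letters in a window and were not tested for binding.

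The libraries held 47391650 to 74056505 counts, with 60870399 or more in the controls, 50859599 to 61826952 in the vehicle and 47391650 to 55379420 in the hAAM livers. All levels below are CPM, counts scaled to library size with TMM factors. Within the APAP livers, hAAM 4 and vehicle 3 were nearly alike, with a spread 1.19 times counting noise, against 2.37 to 4.98 in the other 35 pairs of APAP livers. They carry different group labels and both were kept, and values without them follow where they matter. Control 1 stood apart in genes of classical activation, with 189 CPM of Irf1 against 30.2 and 33.8 in the other controls, and it was the highest control in 14 of 17 such genes.

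Chil3 encodes a secreted chitinase-like protein without enzyme activity (ENSMUSG00000040809, GRCm38 chromosome 3, 106147554 to 106167564, minus strand). The 3 controls had 1.05, 0.550 and 0.356 CPM, from 55, 35 and 18 counts. The vehicle livers had 34.7, 20.4, 18.7, 56.1 and 35.8 CPM, from 968 to 3792 counts. The hAAM livers had 43.1, 36.4, 17.0 and 17.2 CPM. Every APAP liver was above every control, and the lowest APAP liver was hAAM 3. Chil3 was higher than control by 5.67 ± 0.579 (log2, SE) in vehicle livers, a fold of 50.9, and by 5.45 ± 0.581 in hAAM livers, a fold of 43.6. Without control 1 the vehicle difference was 6.17. In whole tissue, more cells that carry Chil3 and more Chil3 RNA per cell cannot be told apart.

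Chil4 (Ym2), whose longest transcript is 94.4% identical to that of Chil3, had 0 counts in all 3 controls. It had 16 to 56 counts in the vehicle livers and 19 to 45 in the hAAM livers. Against a floor of 3 counts over the whole control group, Chil4 was at least 29.6-fold higher in vehicle and at least 31.2-fold higher in hAAM livers. Its counts were 1.03% to 2.39% of those of Chil3 in the APAP livers. Of the 50-base words of the Chil3 transcript 18.5% also occur in Chil4, so some reads could be credited to either gene. The controls had only 18 to 55 counts of Chil3, so a share of that size would leave few or no Chil4 counts there. Whether the Chil4 counts came from Chil3 reads was not tested.

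Chil1, the chitinase-like protein related to human YKL-40 (chromosome 1, 134182176 to 134190181, plus strand), did not share that pattern. The controls had 1.26, 0.267 and 0.652 CPM, the vehicle livers 0.155, 0.191, 0.0581, 0.591 and 0.799, and the hAAM livers 0.454, 0.611, 0.174 and 0.131. These came from 3 to 66 counts per liver, and all 3 groups overlapped. The fitted differences from control were -0.96 ± 0.704 for vehicle and -1.06 ± 0.757 for hAAM. Both rested largely on control 1, and were -0.29 and -0.39 without it.

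**Figure D1:**
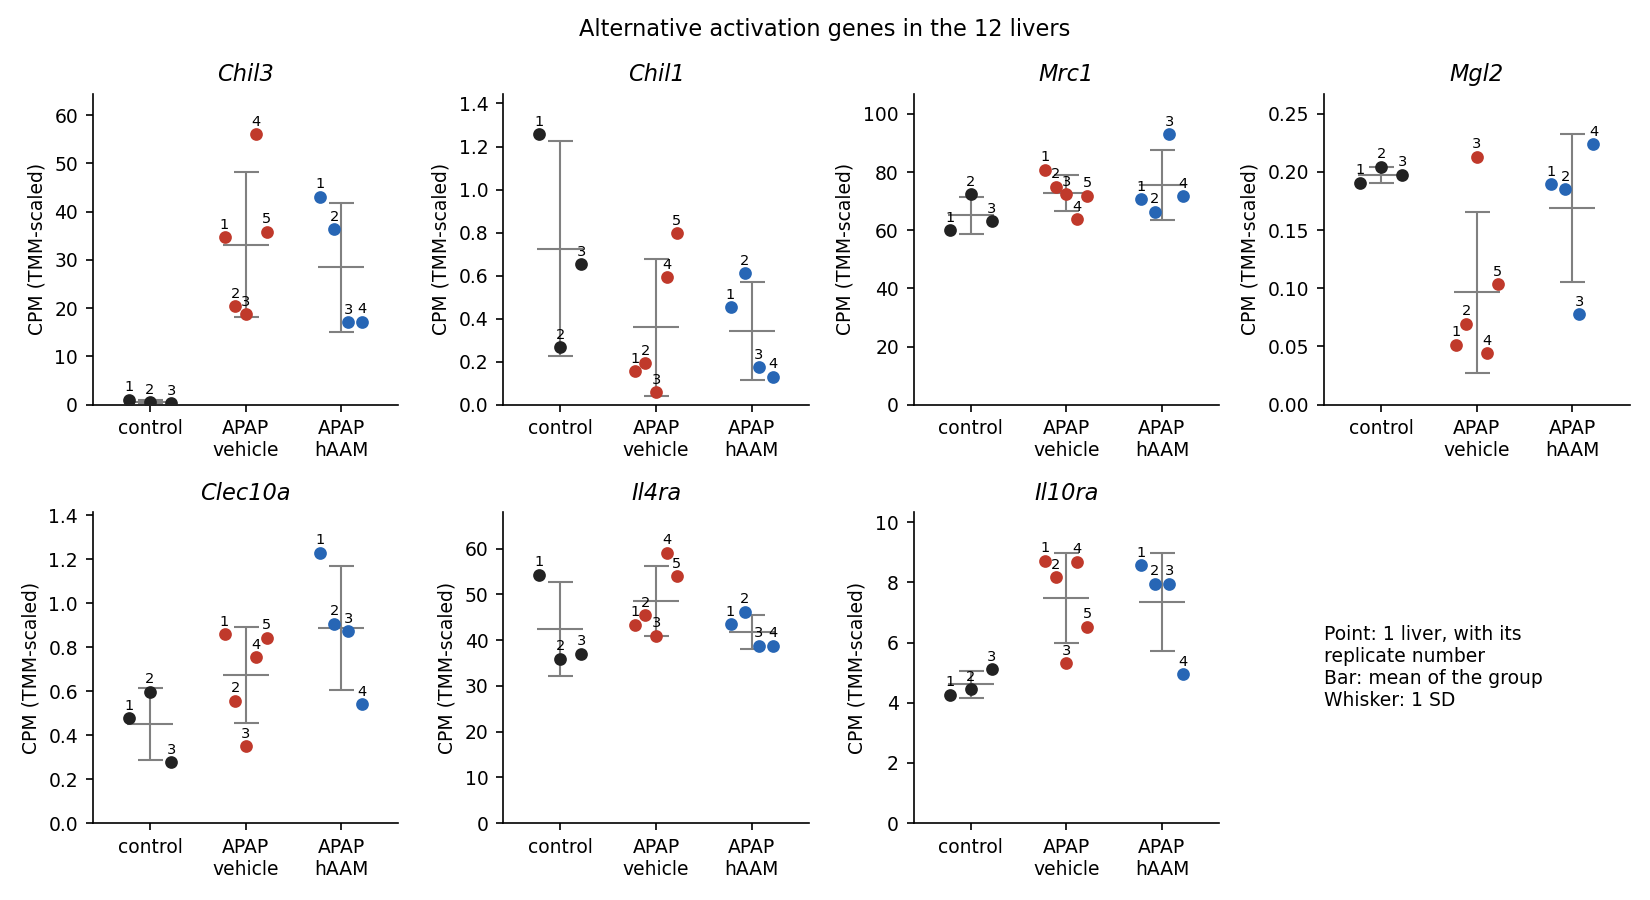
TMM-scaled CPM of the 7 genes in control (3), APAP vehicle (5) and APAP hAAM (4) livers. Points are livers with their replicate numbers, bars are group means and whiskers 1 SD, and each panel has its own axis from 0. Chil3 separates all APAP livers from the controls, whereas the other panels show groups that overlap or, for Il10ra, separate only in the vehicle livers.

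Of the listed lectin receptors (Mrc1, Mgl2 and Clec10a), Mrc1 was the abundant one. It encodes the mannose receptor CD206 (chromosome 2, 14229392 to 14332057, plus strand, a span that also holds the microRNA gene Mir511). The controls had 59.9, 72.4 and 63.0 CPM. The vehicle livers had 80.8, 75.0, 72.4, 63.9 and 71.9 CPM, and the hAAM livers 70.6, 66.4, 93.1 and 71.8. The groups overlapped, and the highest value was that of hAAM 3. That liver and hAAM 4 had nearly equal Chil3, the lowest of the injured mice, and hAAM 4 had 71.8 CPM of Mrc1. Mrc1 was higher than control by 0.16 ± 0.116 in vehicle and 0.21 ± 0.121 in hAAM livers. With library size as the only scaling these became 0.50 and 0.50, and the median of all genes moved to 0.36 and 0.32, from 0.012 and 0.016 with TMM.

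Mgl2 and Clec10a encode macrophage galactose-type lectins, sit side by side on chromosome 11 (70130329 to 70137550 and 70156197 to 70170834, both plus strand) and were close to the limit of detection. Mgl2 had 10, 13 and 10 counts in the controls (0.191, 0.204 and 0.198 CPM). The vehicle livers had 3, 4, 11, 3 and 7 counts and the hAAM livers 10, 10, 4 and 12. In 4 of 5 vehicle livers Mgl2 was below every control, the exception being vehicle 3, one of the nearly identical pair. The fitted difference was -1.06 ± 0.464 for vehicle and -0.22 ± 0.463 for hAAM, and the vehicle value was -1.51 without that pair.

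Clec10a had 0.476, 0.598 and 0.277 CPM in the controls, from 25, 38 and 14 counts. The vehicle livers had 0.860, 0.557, 0.348, 0.754 and 0.843 CPM and the hAAM livers 1.23, 0.907, 0.871 and 0.541. In each APAP group 3 livers were above every control, and the groups overlapped. The differences from control were 0.57 ± 0.353 for vehicle and 0.96 ± 0.367 for hAAM. The longest transcripts of both lectin genes were 88.3% identical where aligned and shared 15.3% of the 50-base words of Mgl2. Some reads could therefore be credited to either gene.

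Il4ra, the receptor chain shared by IL-4 and IL-13 (chromosome 7, 125552120 to 125579474, plus strand, overlapped by the antisense gene Gm44876), had 54.3, 35.9 and 37.0 CPM in the controls. The vehicle livers had 43.4, 45.5, 41.0, 59.1 and 54.0 CPM, and the hAAM livers 43.4, 46.2, 38.8 and 38.8. Control 1 lay among the highest injured livers, while the other controls lay below every injured liver. The difference from control was 0.20 ± 0.153 in vehicle and -0.02 ± 0.159 in hAAM livers, and without control 1 it was 0.42 and 0.20.

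Il10ra, the ligand-binding chain of the IL-10 receptor (chromosome 9, 45253837 to 45269149, minus strand, overlapped by Gm20612 and Mir7086), had 4.27, 4.45 and 5.12 CPM in the controls. The vehicle livers had 8.72, 8.18, 5.32, 8.69 and 6.54 CPM, all above every control. The hAAM livers had 8.57, 7.96, 7.96 and 4.95 CPM, and the last, hAAM 4, fell within the controls. The lowest livers of both injured groups were the nearly identical pair. Il10ra was higher than control by 0.70 ± 0.201 in vehicle and 0.67 ± 0.209 in hAAM livers, folds of 1.63 and 1.60.

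Set beside all genes, 2 of the 7 genes (Chil3 and Il10ra) had an edgeR FDR under 0.05 against control in each APAP group. In all genes tested the share was 29.8% for vehicle and 20.7% for hAAM. Without control 1 it was Chil3 alone in each, beside 21.5% and 13.1% of all genes, and nothing is read from these counts because these comparisons entered the choice. The groups did not overlap, with the APAP group higher, for 2 of 7 genes in vehicle against control (17.5% of all genes) and for 1 of 7 in hAAM against control (14.3%). For none of the 7 did the groups separate with the APAP group lower (17.3% and 14.2%). The median difference of the 7 genes was 0.20 for vehicle and 0.21 for hAAM.

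**Figure D2:**
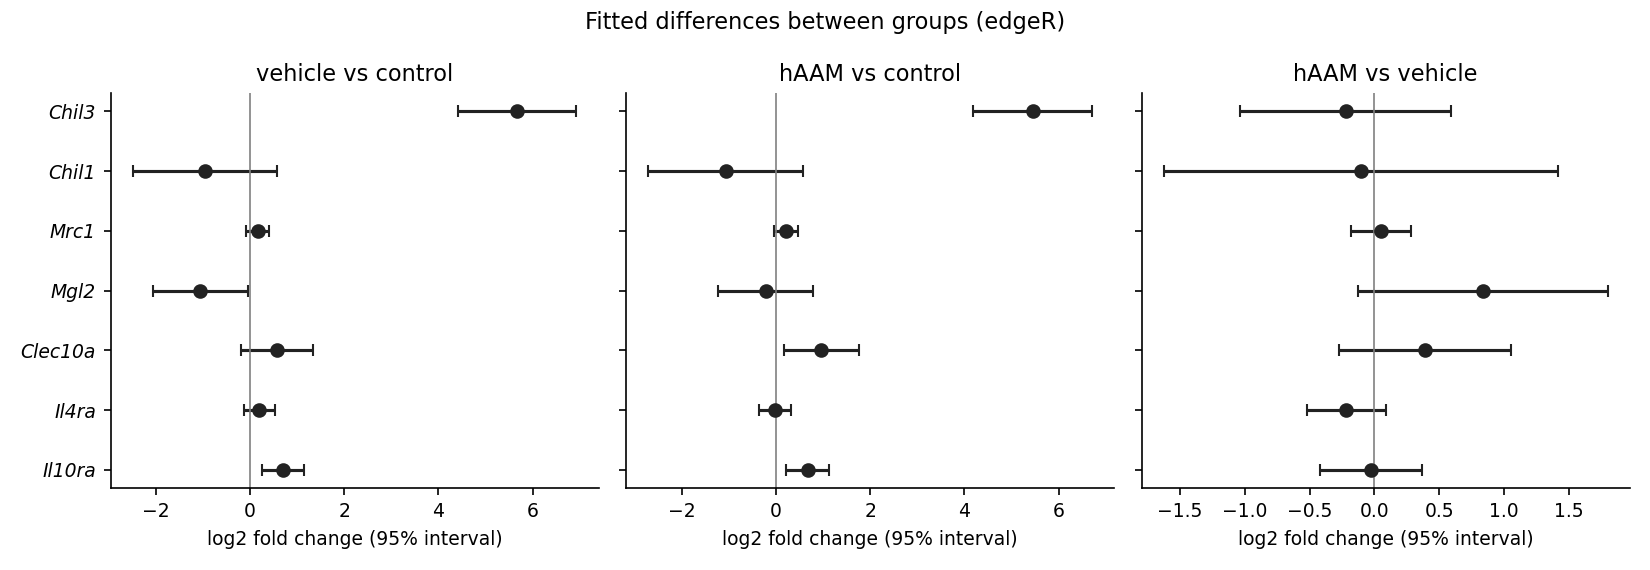
Fitted log2 differences (edgeR) with 95% intervals for the 7 genes in vehicle against control, hAAM against control and hAAM against vehicle; the axis of the last panel is narrower. Chil3 stands at 5.67 and 5.45 against control, and in the hAAM against vehicle panel every interval includes 0.

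Whether hAAMs changed these genes in injured livers was tested with edgeR's quasi-likelihood test, adjusted over 22581 genes. With all livers none of the 7 genes was called, none had an unadjusted p under 0.05, and their edgeR FDRs ran from 0.967 to 0.9995. Among all genes 0 were called (0%), 5.02% had an unadjusted p under 0.05, and DESeq2 called 1 gene and none of the 7. In none of the 7 did the 4 hAAM livers separate from the 5 vehicle livers, which happened upward in 0.709% and downward in 0.691% of all genes. Chil3 differed by -0.22 ± 0.375 (95% interval -1.04 to 0.59), with 2 of 4 hAAM livers below every vehicle liver and the other hAAM livers within the vehicle range. Without vehicle 4, the liver with the most Chil3, the difference was 0.05.

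Mgl2 had the largest difference, 0.84 ± 0.443 (-0.13 to 1.80), on counts of 3 to 12. All 4 hAAM livers were above the vehicle median but only 1 was above every vehicle liver. Without the nearly identical pair the Mgl2 difference was 1.13 ± 0.416 and was not called (edgeR FDR 0.674). Leaving out each liver gave 0.65 to 1.30 for Mgl2, with an edgeR FDR of 0.436 or more. Clec10a differed by 0.39 ± 0.306 (-0.27 to 1.06), with 3 of 4 hAAM livers above every vehicle liver. Il4ra differed by -0.22 ± 0.140 (-0.52 to 0.09) and Chil1 by -0.10 ± 0.699 (-1.62 to 1.42). Mrc1 and Il10ra had the smallest differences, 0.05 ± 0.106 (-0.18 to 0.28) and -0.03 ± 0.180 (-0.42 to 0.36). The interval reached just past a 2-fold decrease for Chil3 and just past a 2-fold increase for Clec10a, past a 2-fold increase for Mgl2, and past 2-fold in both directions for Chil1, so changes of that size in those directions were not excluded. For Mrc1, Il4ra and Il10ra the interval ended within 2-fold on both sides.

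Per length of exon (RPKM, with GENCODE exon lengths), the order of the genes differed between uninjured and injured liver. In control livers Mrc1 led with a mean of 10.2 (SD 1.02), followed by Il4ra at 7.07 (SD 1.72) and Il10ra at 1.32 (SD 0.128), and these 3 ranges did not overlap. Chil3 came next at 0.399 (0.218 to 0.642), overlapping Chil1 at 0.259 (0.0953 to 0.449), which overlapped Clec10a at 0.155 (0.0954 to 0.206). Mgl2 had the lowest mean, 0.0943 (0.091 to 0.0976), and its range overlapped those of Clec10a and Chil1. In vehicle livers Chil3 had the highest mean, 20.3 (11.5 to 34.3), but its range overlapped that of Mrc1 (10.0 to 12.7). The hAAM livers had the same leading pair, Chil3 at 17.4 (10.4 to 26.4) and Mrc1 at 11.8 (10.4 to 14.6). Il4ra and Il10ra followed Mrc1 in that order in each group.

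**Figure D3:**
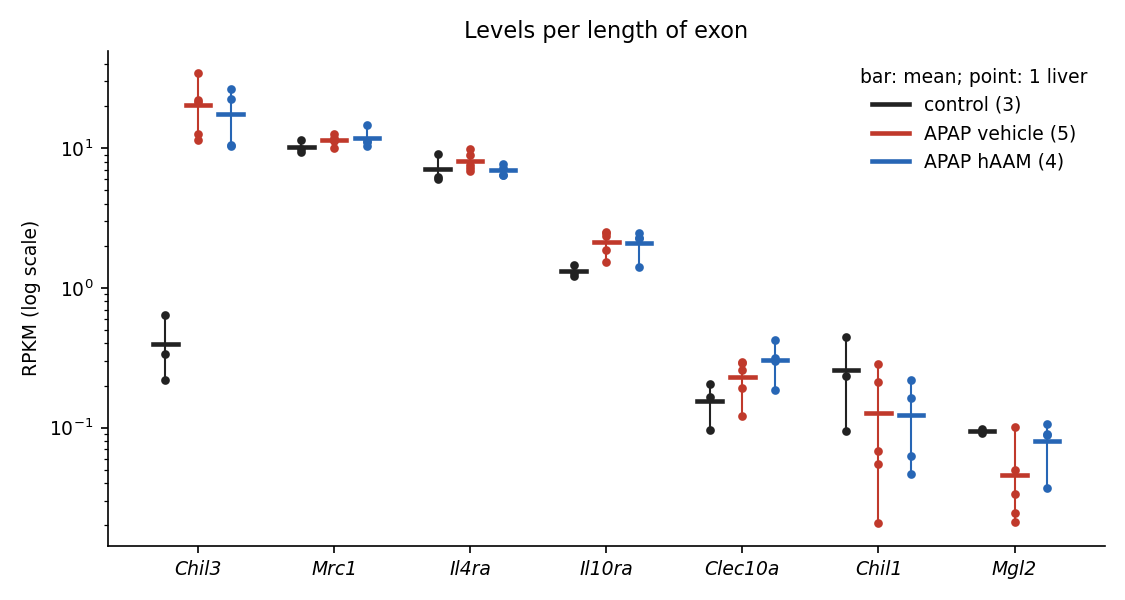
RPKM of the 7 genes on a log axis. Points are livers, thick bars group means and thin lines the range, in control (3), APAP vehicle (5) and APAP hAAM (4) livers. Chil3 moves from a control mean of 0.399 to 20.3 and 17.4 in the injured groups, while Mrc1 stays near 10.2 to 11.8.

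The injured livers varied among themselves, and Chil3 varied about as much within both treatments, by 2.99 times between the lowest and highest vehicle liver and by 2.53 times among hAAM livers. The remaining comparisons between genes use log2 CPM over the 9 APAP livers after each group's mean was removed, and are descriptions, since the genes share the same libraries and scaling. Chil3 went with Il4ra (Pearson r = 0.817, and 0.739 over 7 livers without the nearly identical pair), with Chil1 (0.813 and 0.703) and with Clec10a (0.775 and 0.679). It ran against Mrc1 (-0.579 and -0.801). With Il10ra the value was 0.598 and only 0.199 without the pair, and with Mgl2 it was -0.247 and 0.369 without the pair. Chil1 and Il4ra, a secreted protein and a receptor, were the most alike of the listed genes (0.942 and 0.926).

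Among 15279 genes whose average log2 CPM was 0 or more, those most like Chil3 in the injured livers were Eps8 (0.989), Plod2 (0.987), Kcnn4 (0.987), Matk (0.986), Snx20 (0.986) and the pseudogene Rpl15-ps2 (0.985). Over all 12 livers, where the step from control to APAP dominates, the closest were Zfp469 (0.988), Mmp12 (0.988), Dclk1 (0.981), F13a1 (0.981) and Gm21188 (0.980). Mrc1 was most like Gm43667 (0.972), Cd302 (0.971) and Gm10785 (0.962), of which Cd302 is another C-type lectin receptor of macrophages and endothelium. Il10ra was most like Tnks (0.984), Gng2 (0.976) and Coro1b (0.971). Il4ra was most like Fbxw7 (0.980), Mif (0.967) and Ncl (0.965), and Chil1 like Rps27rt (0.982), Atmin (0.979) and Ncl (0.978). The low-count lectins were most like Fut8 (0.984), Rpl19 (0.983) and Rpl27a (0.971) for Clec10a, and Pdzk1 (0.985), Cars (0.967) and Trim34a (0.967) for Mgl2.

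Some marker lists of other cells moved between the groups in which Chil3 and Il10ra differed, and their counts are set beside the 15.0% of all genes called higher and the 14.8% called lower in vehicle against control. The summed CPM of 8 recruited monocyte markers, Chil3 left out, was 13.8 to 20.7 in controls, 37.6 to 93.6 in vehicle and 30.8 to 79.3 in hAAM livers, and 5 of the 8 rose in vehicle against control by edgeR. Among 12 general macrophage and monocyte markers 7 rose and none fell (320 to 410, 473 to 737 and 477 to 830 CPM). Of 12 Kupffer cell markers 2 rose, a share near that of all genes (481 to 589, 441 to 779 and 521 to 674 CPM). Of 11 sinusoidal endothelial markers, cells that also carry Mrc1, 5 rose and 1 fell (588 to 618, 654 to 820 and 596 to 789 CPM). Of the hepatocyte markers 2 of 8 fell, of conventional dendritic cell markers Itgax rose and Xcr1 fell among 10, and of the 2 eosinophil markers tested Siglecf rose and Ccr3 was not called (0.59, edgeR FDR 0.510), while Prg2, Epx, Ear1 and Ear6 were not analysed here.

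Of 10 neutrophil markers tested none was called in vehicle against control, with a median difference of 1.20, while DESeq2 called Mmp8. By edgeR 3 of them had an unadjusted p under 0.05, as did 9430 of all 22581 genes. Without control 1, when 11 were tested, the median was 2.48, and Mmp8 and Trem1 rose. The summed level was 329 to 1062, 251 to 1106 and 249 to 1070 CPM in control, vehicle and hAAM livers, most of it from Lcn2, which injured hepatocytes also make. Without Lcn2, left out after its level was seen, the sums were 34.6, 12.7 and 8.28 CPM in the controls, 13.9 to 64.8 in vehicle and 14.5 to 58.0 in hAAM livers. Of the neutrophil precursor markers Mpo, Ctsg, Fcnb and Ms4a3 were not analysed here, and 1 of 4 tested fell. Without control 1, 21.5% of all genes were called. The other lists then had 5 of 8 recruited monocyte, 6 of 12 general, 1 of 12 Kupffer cell and 4 of 11 endothelial rises. Ly6c2 replaced Fcgr4 among the recruited monocyte rises, and Cd14 replaced Fcgr1 and Itgam among the general ones. The calls of the hepatocyte markers, Siglecf, Xcr1 and the endothelial fall were lost. None of these marker genes was called between hAAM and vehicle.

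Chil3 followed the summed recruited monocyte markers across the 9 APAP livers (r = 0.951, and 0.926 over 7 livers without the nearly identical pair) and the summed neutrophil markers without Lcn2 (0.958 and 0.938). Its value against the Kupffer cell markers was 0.0971 and -0.169, and against conventional dendritic cell markers -0.802 and -0.847. Mrc1 had the opposite signs, -0.659 and -0.893 against recruited monocyte markers and 0.788 and 0.918 against dendritic cell markers. Against the sinusoidal endothelial markers Mrc1 had -0.496 and -0.762, and Chil3 0.743 and 0.592. Il10ra went with the general macrophage and monocyte markers (0.931 and 0.890) and with the Kupffer cell markers (0.645 and 0.846). The part of these cells in the Chil3 level was not tested, and a sum is carried mostly by its most abundant genes.

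Single monocyte genes were set beside Chil3, whose own difference from control was part of the choice. The 5 recruited monocyte markers that rose in vehicle against control did so by 0.63 (Fcgr4) to 5.02 (S100a4), with Vcan at 3.23. Fcgr4 was not called without control 1, and S100a4 had 0 to 1 count in the controls and 6 to 24 in the vehicle livers. Cd68, a lysosomal protein of macrophages, rose by 2.21 and Ccr2, the chemokine receptor of recruited monocytes, by 2.62 in vehicle against control (edgeR FDR 4.44e-05 and 0.00211). The log2 difference of Chil3 from Ccr2 was -2.37 to -1.69 in controls, 0.587 to 1.48 in vehicle and 0.605 to 0.949 in hAAM livers. From Cd68 it was -4.66 to -2.98, -1.08 to 0.162 and -0.952 to -0.192. From Mmp12, a macrophage elastase, it moved less between the groups than from either of these, at -0.0499 to 0.399, 0.256 to 1.30 and 0.0364 to 0.862.

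**Figure D4:**
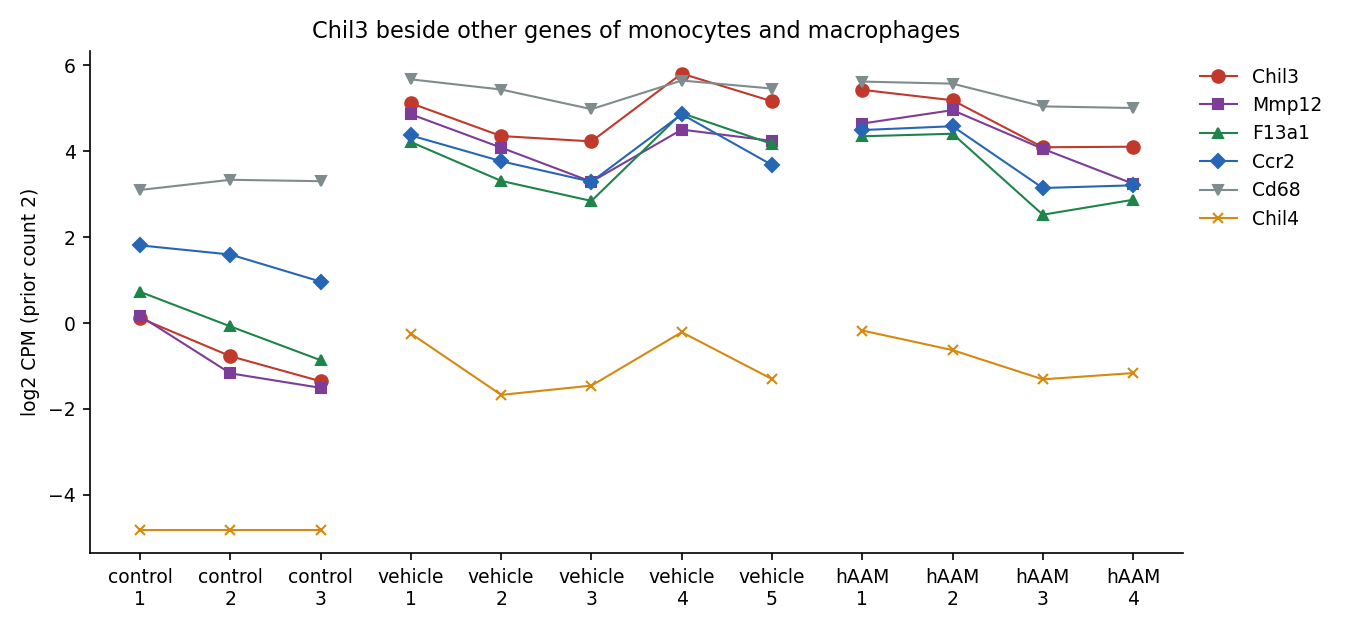
log2 CPM (prior count 2) of Chil3, Chil4 and 4 genes of monocytes and macrophages in each of the 12 livers. Lines join the livers of a group only to guide the eye, since replicates have no order. Chil3 and Mmp12 lie below Ccr2 in the controls, Chil3 lies above Ccr2 in every APAP liver, and Chil4 is at 0 counts in the controls.

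The pathways around these genes did not move as a block. Of 100 further genes in 7 lists, 85 were tested, and 34 (40.0%) were called in vehicle against control, 16 higher and 18 lower, against 29.8% of all genes (15.0% higher and 14.8% lower). For hAAM against control 27 were called, 13 higher and 14 lower, against 20.7% (10.7% and 9.96%). None was called between hAAM and vehicle, where 5 of 85 had an unadjusted p under 0.05 (5.02% of all genes). The values below are edgeR log2 differences of vehicle against control with the FDR over all genes.

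In IL-4 and IL-13 signalling 1 of 14 genes rose and 4 fell, with a list median of -0.07. The phosphatase gene Ptpn6 rose by 0.40 (edgeR FDR 0.0114). The receptor chain Il13ra1 fell by 0.58 and the kinase Jak3 by 0.72, and both kept their calls without control 1. The adaptor Irs2 fell by 2.54 (edgeR FDR 0.00892) and by 1.47, with FDR 0.0763, without control 1. Stat6, the factor that reads these cytokines, fell by 0.20 (edgeR FDR 0.0415) and was not called without control 1. Il4 itself was at 0.0696 to 0.290 CPM in the vehicle livers, and Il13 was not analysed here.

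In IL-10 signalling 1 of 11 genes rose and 6 fell (median -0.50). Il10rb, the partner chain of Il10ra, rose by 0.60 (edgeR FDR 0.0438). Nfil3 fell by 2.15, Bcl3 by 2.05 and Socs3 by 2.05 (edgeR FDR 0.000127, 0.000108 and 0.00136), all of them known IL-10 response genes, though hepatocytes carry them too. Without control 1 the falls were 1.93, 1.79 and 1.29, 4 of the 6 falls kept their calls, and the list median was -0.22.

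Among 21 other alternative activation genes 9 rose and none fell (median 0.47, and 0.01 over all genes). The largest rises after Chil4 were those of Mmp12, by 5.02 (edgeR FDR 0.00018), and of F13a1, a transglutaminase subunit of monocytes, by 4.03 (edgeR FDR 0.00135). In hAAM against control 7 of the 21 rose. Without control 1 the counts were again 9 and 7, beside 21.5% and 13.1% of all genes. The genes were not all the same, since Egr2 replaced Msr1 for vehicle and Tmem26 for hAAM. The median for vehicle was then 0.95. Ccl17, Cd209d, Pdcd1lg2 and Ear11 were not analysed here.

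Among 17 genes of classical activation none rose and 4 fell (median -0.46). These were Cxcl9, by 3.24, Irf1, by 2.02, Il1b, by 1.95 (edgeR FDR 0.003, 0.00706 and 0.0397), and Fpr1. The summed level of the 17 was 369 CPM in control 1, 65.9 and 68.5 in the other controls, and 53.2 to 76.2 in vehicle livers. Without control 1 the list median turned to 0.51, Il1b was no longer called, Cxcl9 fell by 1.74 and Irf1 fell by 0.62 (edgeR FDR 0.0194 and 0.00863).

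The relatives of the listed genes were divided. Of 6 tested relatives of the chitinase-like and resistin-like proteins only Chil4 rose, and Chid1 fell by 0.83 (edgeR FDR 0.000704). Among 14 lectin receptors Clec4d rose by 2.03 and Clec7a, the beta-glucan receptor dectin-1, by 1.42 (edgeR FDR 0.0403 and 0.00241), and without control 1 by 2.96 and 1.36. The hepatocyte lectins Asgr2 and Asgr1 fell by 0.84 and 0.44 (edgeR FDR 0.0167 and 0.0375), and without control 1 the falls were 0.77 and 0.40 and neither was called. Among 9 class II cytokine receptors, the family of Il10ra, 5 rose and 1 fell (median 0.65). F3 (tissue factor) rose by 1.38, Ifngr1 by 0.91 and Il20rb by 0.82, while Ifnar2 fell by 0.76, and these 4 kept their calls without control 1.

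**Figure D5:**
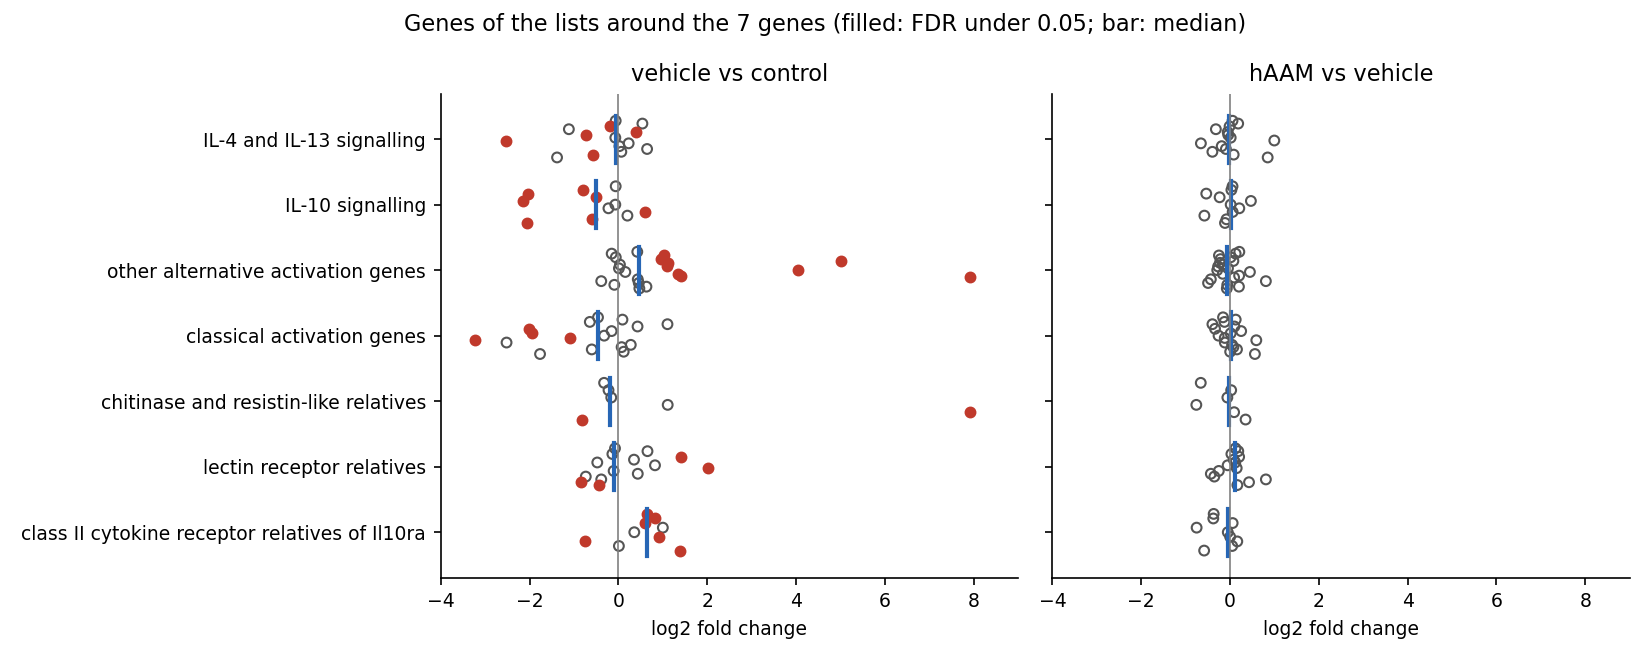
log2 difference of each tested gene in the 7 lists, for vehicle against control (left) and hAAM against vehicle (right). Filled points have an edgeR FDR under 0.05 and blue bars are list medians. Called genes lie on both sides of 0 on the left, while the list of other alternative activation genes has 9 rises and no fall, and no point is filled on the right.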

How the data were processed

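The deposited values are the authors' raw gene counts for 12 livers, not normalized. Per the submitters' processing notes, reads were checked with FastQC and MultiQC 1.25, trimmed with cutadapt 4.6, aligned with STAR 2.7.1a to GRCm38 and analysed with DESeq2 1.38.3. The library kit was directional, but the strand setting of the counting was not given in the sources used here, so overlapping genes may share reads. Groups came from the labels. Symbols and coordinates came from GENCODE vM21, which matched 24092 of 24187 genes.

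Analyses used R 4.3.3 and edgeR 4.0.16 (limma 3.58.1): filterByExpr by group, TMM, and one quasi-likelihood fit of 3 groups, two-sided, with Benjamini-Hochberg adjustment over 22581 genes and a threshold of 0.05. SE is the log2 difference divided by the root of F. log2 CPM used a prior count of 2. The fit was tested on simulated data. No label says that mice came from separate litters or days, so p-values measure the spread between these mice.

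The listed genes, the lists around them and the tests were chosen with earlier results of these data known. Named with values were the listed genes, in each pathway list the called genes of vehicle against control with at most the 3 largest rises and falls, and the genes most like each listed gene by Pearson r. Stat6, Il4, Fpr1, Egr2, Msr1, Tmem26 and the single cell type markers were outside that rule and were named after their values were seen. Motif positions count from the RefSeq start. Alternatives were DESeq2 1.42.0, its size factors in edgeR, library size alone, no filter, at least 10 counts in every liver, a robust fit, 2 groups at a time, a replicate block, an FDR of 0.1, summed counts of gene pairs, and leaving out each liver or the nearly identical pair.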

Additional observations from a re-analysis of the deposited data

Results flagged for a closer look

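In 60 groups of 4 or 5 livers over 30 genes, 3 livers stood apart from the rest of their group by Dixon's criterion. Chance alone flags about 1 group in 20, so this count is about what chance would give. Il10ra in hAAM 4 was at 4.95 CPM against 7.96 to 8.57 in the other hAAM livers, a gap of 0.831 of the range. hAAM 4 is the liver nearly identical to vehicle 3. Bcl3 in hAAM 3 was at 14.6 CPM against 27.4 to 28.9, and F3 in hAAM 3 was at 1.68 CPM against 2.22 to 2.28. Of the injured livers, hAAM 3 had the most Mrc1 (93.1 CPM) and, barely below hAAM 4 (17.2 CPM), the least Chil3 (17.0 CPM).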

How the results depend on the processing

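Chil3 kept its direction against control in all 22 alternatives, at 5.39 to 6.17 for vehicle and 5.17 to 5.95 for hAAM. Il10ra kept its direction in all 21, at 0.64 to 1.05 for vehicle and 0.60 to 0.98 for hAAM. The count of listed genes with an FDR under 0.05, 2 in each APAP group against control, is set beside the share of all genes called under the same setting, which was 29.8% for vehicle and 20.7% for hAAM with all livers and TMM. It was 4 and 4 with library size alone (43.2% and 32.5%). It was 3 and 3 without the nearly identical pair, with Mgl2 joining for vehicle and Clec10a for hAAM (30.0% and 19.6%), and 3 for hAAM with DESeq2, with Clec10a (25.8%). It was 1 for hAAM when only its 2 groups were fitted (12.7%), and 1 to 3 when each liver was left out (20.1% to 32% for vehicle and 10.5% to 24.2% for hAAM). It was 1, with Il10ra no longer counted, without control 1 or control 2 for vehicle (21.5% and 23.2%), and without any 1 control, vehicle 2, hAAM 1, hAAM 2 or hAAM 3 for hAAM. For the pathway lists in hAAM against control the count of 27 was 17 with only 2 groups (12.7%). It was 17 to 29 without each liver, the lowest without hAAM 1 (12.5%) or hAAM 2 (13.1%). The share of all genes called was lowest without control 3 (10.5%), so the lowest count and the lowest share came from different settings.

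Replicate numbers did not pair the mice: deviations of same-numbered vehicle and hAAM livers correlated at -0.458 to 0.385. With the number as a replicate block, 1 listed gene, Chil3, was called in each APAP group against control (18.8% and 13.1% of all genes), and the Chil1 difference between hAAM and vehicle turned to 0.59.

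Directions that turned belonged to differences not called with all livers and TMM. For hAAM against vehicle, leaving out each liver gave Chil3 -0.493 to 0.0525, Chil1 -0.54 to 0.41, Mrc1 -0.0643 to 0.11 and Il10ra -0.13 to 0.12, while Mrc1 was -0.0033 with library size alone and Il10ra 0.0192 without the nearly identical pair. For hAAM against control, library size alone gave Mgl2 0.0853 and Il4ra 0.29, leaving out each liver gave Mgl2 -0.38 to 0.0121 and Il4ra -0.13 to 0.20, and Il4ra was 0.0164 without the pair. The counts of Mgl2 and Clec10a added together, most of them from Clec10a, differed by 0.24 for vehicle and 0.70 for hAAM against control, which says nothing of Mgl2 alone. The cause of these turns was not tested. Counts of 3 to 13 per liver limit Mgl2.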
